A study of Arabidopsis thaliana with 9 samples.

Results

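A set of 10 transcription factor genes that specify embryo identity or drive seed maturation was followed in siliques of Arabidopsis thaliana, the fruits that hold the developing seeds. They were chosen by name and not by a rule on their values, though with earlier results of these data known: LEC1 (AT1G21970), L1L (AT5G47670), LEC2 (AT1G28300), FUS3 (AT3G26790), ABI3 (AT3G24650), WRI1 (AT3G54320), BBM (AT5G17430), WOX2 (AT5G59340), WOX8 (AT5G45980) and WOX9 (AT2G33880). These were 10 of the 34262 rows of the mRNA table, and all 10 had enough reads to enter the test. The siliques were of accession Columbia-0, taken 1 to 5 days after pollination. The 3 genotypes of the 6 mRNA libraries were ago3-3 homozygotes, in which both copies of ARGONAUTE 3 (AGO3) carry the mutant allele, ago3-3 heterozygotes and wild type, with 2 biological samples each. The samples' genotype field names ago3-3 for both mutant groups, and their titles mark which were homozygous and which heterozygous. The 3 small RNA libraries, 1 of each kind without replication, were total small RNA of wild-type siliques, small RNA bound to AGO3, and small RNA from a control immunoprecipitation. The AGO3 immunoprecipitate came from ago3-3 plants that carried a tagged AGO3 behind its own promoter (pAGO3:FHA-AGO3), and the control used FLAG antibody on wild-type siliques, which lack the tag.

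The zygote of Arabidopsis divides into an apical cell, from which most of the embryo grows, and a basal cell, which forms the suspensor. WOX2 is known from the apical lineage, and WOX8 and WOX9, close relatives within the WUSCHEL-related homeobox family, from the basal lineage. Later the LAFL network of LEC1, ABI3, FUS3 and LEC2 sets embryo identity and then storage filling: LEC1 and its relative L1L are B subunits of the trimeric CCAAT-binding factor NF-Y, and ABI3, FUS3 and LEC2 carry the plant B3 DNA-binding domain. WRI1, of the AP2 family, activates glycolytic and fatty acid synthesis genes in seeds, and BBM, an AINTEGUMENTA-LIKE (AIL) protein of the same family, can start embryo formation from vegetative tissue when overproduced.

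Library totals ran from 30338416 to 36258980 estimated counts, so that 3 counts corresponded to 0.0827 to 0.0989 counts-per-million (CPM). AGO3 itself, the check of the genotype labels, was at 2.11 and 3.29 CPM in the homozygous libraries, 12.6 and 12 CPM in the heterozygous libraries, and 30.4 and 17.7 CPM in the wild type, in the order of the labels and without overlap. Across all tested genes, the first principal component held 37.3% of the variance and set homozygous replicate 2 (44.2) and wild type replicate 1 (49.9) apart from the other libraries (-27.1 to -20.0). These 2 libraries belong to different genotypes, and the genotype comparisons are given below with and without them. In whole siliques, fewer cells of a type and less RNA per cell cannot be told apart. All p-values set a genotype difference against the spread between samples of a genotype, which is estimated in part from other genes. The homozygous and heterozygous comparisons with the wild type share the same wild-type libraries.

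Levels of the regulators differed widely, from WRI1 at a median of 80.9 CPM over the 6 libraries to WOX2 at 0.443 CPM. Levels were ordered between genes after division by gene length, taken as the annotated genomic span with introns. On this scale of CPM per kilobase the medians were 19.0 for WRI1, 11.2 for L1L, 9.03 for LEC1, 8.38 for ABI3, 5.33 for WOX9, 4.84 for FUS3, 3.02 for WOX8, 2.21 for BBM, 1.71 for LEC2 and 0.259 for WOX2. Each gene's range over the libraries overlapped that of the next gene in the order, with the exception of LEC2 and WOX2. WOX2, at 0.139 to 0.413 CPM per kilobase, lay below every other member in every library. L1L had the widest range on this scale, from 1.84 to 20.8 CPM per kilobase, which reached from the level of BBM to that of WRI1. Without division by length, 4 genes changed rank.

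**Figure D1:**
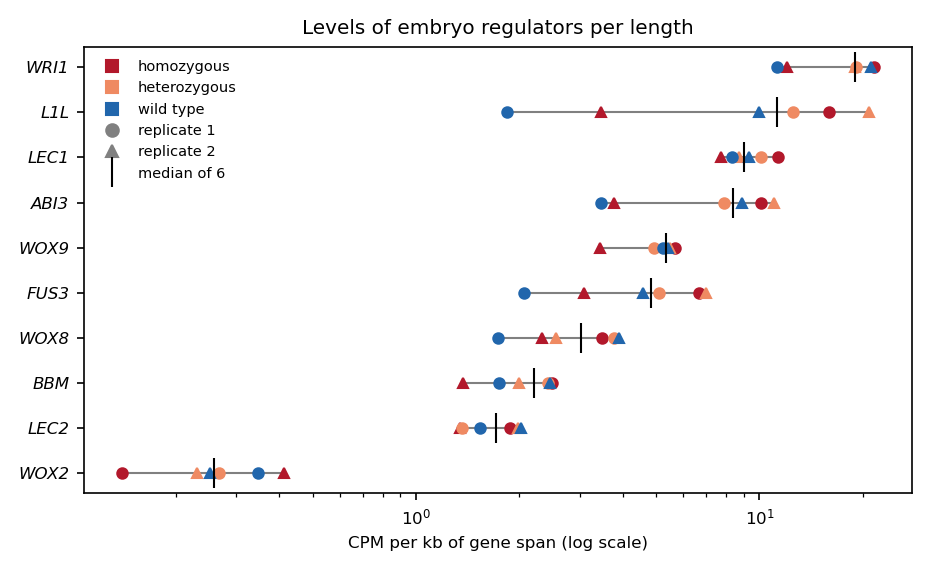
CPM per kilobase of gene span on a log axis for the 10 regulators, ordered by the median of the 6 libraries (vertical tick); each point is 1 library, coloured by genotype and shaped by replicate, and the line runs from the lowest to the highest library. Neighbouring ranges overlap down to LEC2, WOX2 lies apart at 0.139 to 0.413, and L1L spans 1.84 to 20.8.

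The NF-Y subunits LEC1 and L1L stood at opposite ends of stability. LEC1, a regulator of both early embryo identity and maturation, was at 23.5 and 16.1 CPM in the homozygous libraries (replicates 1 and 2), 20.9 and 18.1 CPM in the heterozygous libraries, and 17.2 and 19.3 CPM in the wild type. Its highest library was thus 1.46-fold its lowest, and the genotypes overlapped throughout. L1L, the closest relative of LEC1 in the NF-YB family and also needed for embryo development, was at 22.2 and 4.83 CPM in the homozygous libraries, 17.4 and 28.9 CPM in the heterozygous libraries, and 2.57 and 13.9 CPM in the wild type. Its levels in homozygous replicate 2 and wild type replicate 1 were the 2 lowest, and its highest library was 11.3-fold its lowest. Homozygous replicate 1 exceeded its partner 4.61-fold, and wild type replicate 2 exceeded its partner 5.40-fold, whereas the heterozygous pair differed 1.67-fold.

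The ratio of L1L to LEC1 CPM, 2 values of the same library, was 0.946 and 0.300 in the homozygous libraries, 0.832 and 1.60 in the heterozygous libraries, and 0.149 and 0.717 in the wild type. Heterozygous replicate 2 was the library in which L1L exceeded LEC1. Together the pair held 7.60% to 22.2% of the CPM per kilobase of the 10 NF-YB genes measured, least in wild type replicate 1 and most in heterozygous replicate 2. The 8 other NF-YB genes summed to 123 to 153 CPM and did not show this split: of the 7 tested, NF-YB3 was lowest and NF-YB1 and NF-YB10 were highest in homozygous replicate 2 and wild type replicate 1, all named after their values were seen.

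Among the B3 factors, ABI3 and FUS3 shared their lowest and highest libraries, and LEC2 varied less. ABI3, which mediates abscisic acid responses in the maturing seed, was at 38.4 and 14.4 CPM in the homozygous libraries, 29.997 and 42.1 CPM in the heterozygous libraries, and 13.2 and 33.9 CPM in the wild type. FUS3, a promoter of maturation that also restrains leaf identity in cotyledons, was at 16.0 and 7.38 CPM in the homozygous libraries, 12.2 and 16.6 CPM in the heterozygous libraries, and 4.92 and 10.9 CPM in the wild type. Both genes were lowest in wild type replicate 1, next lowest in homozygous replicate 2, and highest in heterozygous replicate 2. The ABI3 replicates differed 2.67-fold in the homozygous pair and 2.58-fold in the wild-type pair, against 1.41-fold in the heterozygous pair. The ratio of ABI3 to FUS3 stayed between 1.95 and 3.11 in the 6 libraries.

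LEC2, which can by itself switch on embryo traits in leaves when overproduced, was at 5.66 and 4.06 CPM in the homozygous libraries, 4.11 and 5.95 CPM in the heterozygous libraries, and 4.62 and 6.09 CPM in the wild type. Its lowest library was homozygous replicate 2, the next lowest was heterozygous replicate 1, and its full range was 1.5-fold. ABI3 was therefore 2.85 to 7.30 times LEC2 in CPM, lowest in wild type replicate 1 and highest in heterozygous replicate 1.

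The AP2 factors were lowest in the same 2 libraries, with smaller folds. WRI1 was at 92.0 and 51.3 CPM in the homozygous libraries, 81.2 and 80.7 CPM in the heterozygous libraries, and 47.9 and 90.0 CPM in the wild type. The other 4 libraries lay between 80.7 and 92.0 CPM, and the heterozygous pair differed 1.01-fold. BBM was at 8.34 and 4.61 CPM in the homozygous libraries, 8.13 and 6.69 CPM in the heterozygous libraries, and 5.84 and 8.24 CPM in the wild type. BBM made up 6.87% to 8.75% of the CPM per kilobase of the 6 AIL genes measured, a share that the 2 libraries did not set apart. Of the 5 other AIL genes, regulators of organ growth and meristems, 4 were likewise lowest in these 2 libraries (ANT, AIL5, AIL6 and AIL7, named after their values were seen), with AIL5 at 10.4 and 4.30 CPM in the homozygous pair and 4.14 and 7.77 CPM in the wild-type pair.

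The 3 homeobox genes of the early lineages each behaved differently. WOX8 was at 6.79 and 4.55 CPM in the homozygous libraries, 7.34 and 4.99 CPM in the heterozygous libraries, and 3.38 and 7.63 CPM in the wild type, with the 2 lowest values again in wild type replicate 1 and homozygous replicate 2. WOX9 was at 13.8 and 8.39 CPM in the homozygous libraries, 12 and 13.4 CPM in the heterozygous libraries, and 12.8 and 13.2 CPM in the wild type. Homozygous replicate 2 was the 1 low library for WOX9, and the wild-type pair agreed to 1.03-fold. The ratio of WOX8 to WOX9 CPM accordingly ran from 0.264 in wild type replicate 1 to 0.610 in heterozygous replicate 1.

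WOX2 was close to the limit of detection, with 8 and 23 estimated counts in the homozygous libraries, 16 and 14 in the heterozygous libraries, and 22 and 12 in the wild type. These correspond to 0.238 and 0.707, 0.457 and 0.395, and 0.595 and 0.430 CPM. WOX2 was the 1 member highest in homozygous replicate 2 and wild type replicate 1, on these low counts. WOX2, WOX8 and WOX9 together held 27.9% to 39.1% of the CPM per kilobase of the 15 WOX genes measured, and the shares in homozygous replicate 2 (27.9%) and wild type replicate 1 (28.3%) were the lowest.

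**Figure D2:**
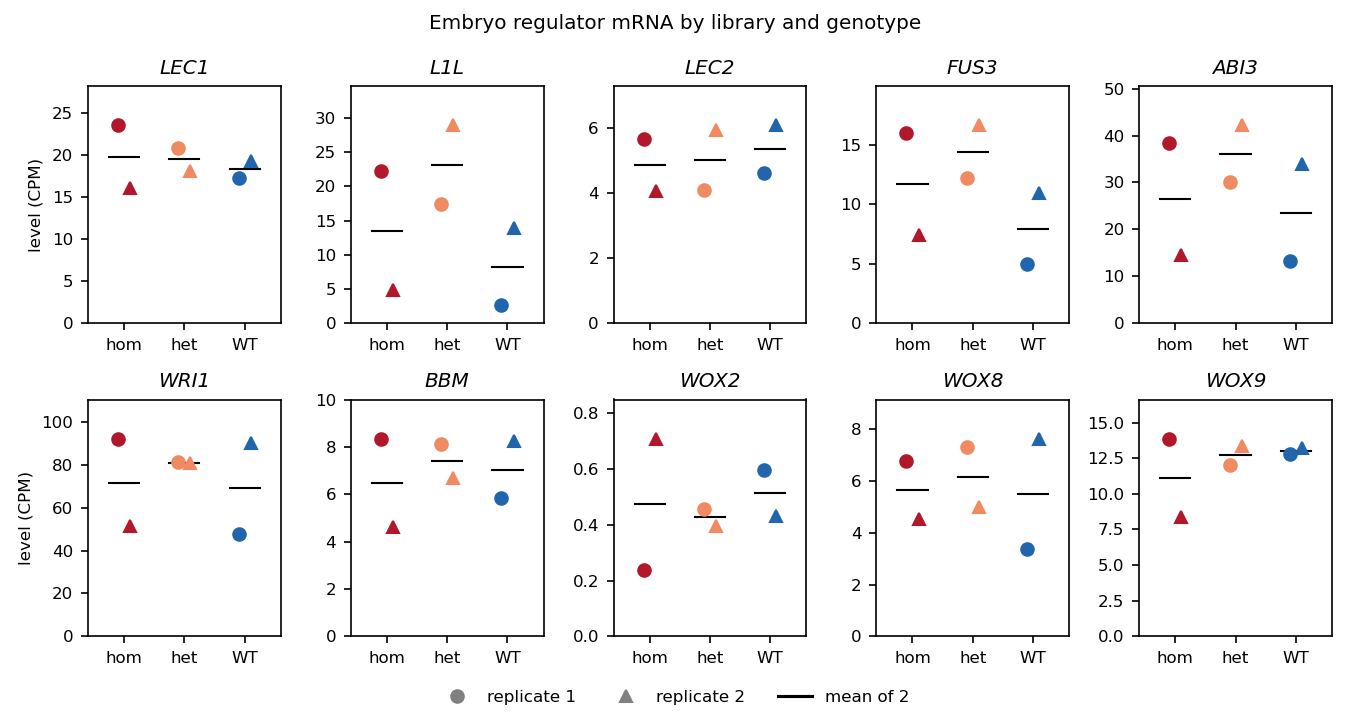
CPM of each regulator in the 6 libraries (circles replicate 1, triangles replicate 2, bars the mean of 2) for homozygous (hom), heterozygous (het) and wild-type (WT) siliques, each panel with its own axis from 0. Replicate 1 lies above replicate 2 for 9 of 10 genes in the homozygous pair and for 1 of 10 in the wild-type pair, and the genotypes overlap for all genes except L1L and FUS3 between heterozygous and wild type.

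The common pattern of the set was a split within genotypes. For 7 of the 10 members (LEC1, L1L, FUS3, ABI3, WRI1, BBM and WOX8), homozygous replicate 2 and wild type replicate 1 were the 2 lowest libraries, an order held by 10.8% of all 22702 tested genes. For 1 member, WOX2, they were the 2 highest, against 10.6% of all genes. Replicate 1 was above replicate 2 for 9 members in the homozygous pair, 5 in the heterozygous pair and 1 in the wild-type pair, whereas over all tested genes these shares were 49.4%, 50.1% and 50.3%. The members were not independent samples of this order, since all were read in the same 6 libraries.

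The size of the split was uneven among members. The higher of the 2 lowest libraries lay close to the next library for LEC1 (17.2 against 18.1 CPM) and WOX8 (4.55 against 4.99 CPM). For L1L it lay far below (4.83 against 13.9 CPM). The homozygous replicates differed by 1.5-fold or more for 7 members, against 15.9% of all tested genes, and the wild-type replicates for 5 members, against 17.6%. The heterozygous replicates did so for 1 member, L1L, against 12% of all genes. The median fold between replicates was 1.80, 1.29 and 1.64 for the members in the homozygous, heterozygous and wild-type pairs, beside 1.15, 1.13 and 1.16 for all tested genes. As the standard deviation of log2 CPM over the 6 libraries, L1L varied by 1.36, ABI3 by 0.73 and FUS3 by 0.67, while LEC2 and WOX9 varied by 0.26 and 0.27 and LEC1 by 0.20. A spread as large as that of L1L was seen in 1.00% of tested genes, as large as that of ABI3 in 6.65% and as large as that of LEC1 in 46.4%. The median spread was 0.44 over the members and 0.19 over all tested genes.

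Likeness was measured as the root mean square difference of log2 CPM after each gene was centred on its own mean over the 6 libraries. The closest pairs of members were LEC1 and BBM (0.17), WRI1 and BBM (0.18) and LEC2 and WOX9 (0.18), and the farthest was L1L and WOX2 (1.59). FUS3 and ABI3 differed by 0.20, well below the spread of either gene over the libraries. The mean centred log2 profile of the 10 members was -0.43 in homozygous replicate 2 and -0.55 in wild type replicate 1, against 0.18 to 0.30 in the other 4 libraries. The 3 genes most like this mean profile, of 18493 candidates that were not members, were UMAMIT25, a predicted transporter of the UMAMIT family (AT1G09380, difference 0.03), AT5G56120 (0.06) and LPD1, a plastid dihydrolipoamide dehydrogenase gene (AT3G16950, 0.06). UMAMIT25 was at 64.4 and 38.4 CPM in the homozygous libraries, 60.7 and 61.7 CPM in the heterozygous libraries, and 35.6 and 59.6 CPM in the wild type.

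Genes that the regulators are known to control, or that act beside them, were described by lists chosen for these roles. The steepest split was in the 14 storage protein and oil body genes, the products of embryo filling, which summed to 173 and 21.2 CPM in the homozygous libraries, 96.0 and 318 CPM in the heterozygous libraries, and 16.1 and 76.4 CPM in the wild type. Of its 11 tested genes, 8 were lowest in homozygous replicate 2 and wild type replicate 1. The other 3 (CRB, SESA4 and SESA5) had 0 counts in these 2 libraries and also in wild type replicate 2, and 1 of the 8, SESA2, had 1, 0 and 1 counts in the same 3 libraries. The cruciferin gene CRA1, picked out after its values were seen, had 10 estimated counts in homozygous replicate 2 and 2 in wild type replicate 1, against 582, 219, 1081 and 38 in homozygous replicate 1, heterozygous replicates 1 and 2 and wild type replicate 2. EM1, a late embryo gene, had 0 in all 6.

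The 15 fatty acid and oil synthesis genes, many of them targets of WRI1, were lower in the same libraries by a smaller factor, with summed levels of 1709 and 1737 CPM there against 2113 to 2287 CPM in the other 4, and 12 of the 15 had the 2 libraries lowest and 1, FAD3, had them highest. FAE1, which elongates seed fatty acids and was picked out after its values were seen, went much further, with 0.676 CPM in homozygous replicate 2 and 0.0270 CPM in wild type replicate 1, against 21.0, 12.1, 32.0 and 8.92 CPM in the other libraries. Of the 14 maturation cofactors, 6 were lowest in the 2 libraries (BZIP67, EEL, BZIP25, ABI4, AGL15 and MYB118) and ABI5 was highest, all named after their values were seen. The gaps were uneven: EEL was at 5.75 and 3.27 CPM in the 2 libraries and 15.3 to 25.3 CPM in the rest, and BZIP25 at 43.5 and 39.98 CPM against 44.5 to 50.004 CPM.

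Other parts of the embryo programme were mixed or showed neither order. Of the 14 tested early embryo patterning genes, SSP and BDL were lowest in the 2 libraries. SSP rested on few counts, 5 and 4 there and 5 to 29 in the rest. BDL was at 15.1 and 15.2 CPM there, close to the 15.8 to 18.0 CPM of the rest. Another 4 were highest in the 2 libraries (MP, TMO5, CUC2 and STM), and all these genes were named after their values were seen. STM, a shoot meristem gene, was at 14.4 and 17.8 CPM there and 8.99 to 13.2 CPM in the rest. The summed level of the list stayed between 567 and 614 CPM. Of the 5 repressors of the embryo programme (VAL1, VAL2, VAL3, PKL and ASIL1), which keep the LAFL genes off after germination, 0 were lowest and 0 highest in the 2 libraries, and their sum ran from 278 to 302 CPM. Of the 7 tested other WOX genes, WOX12 was lowest and WOX5 and WOX13 were highest in them.

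**Figure D3:**
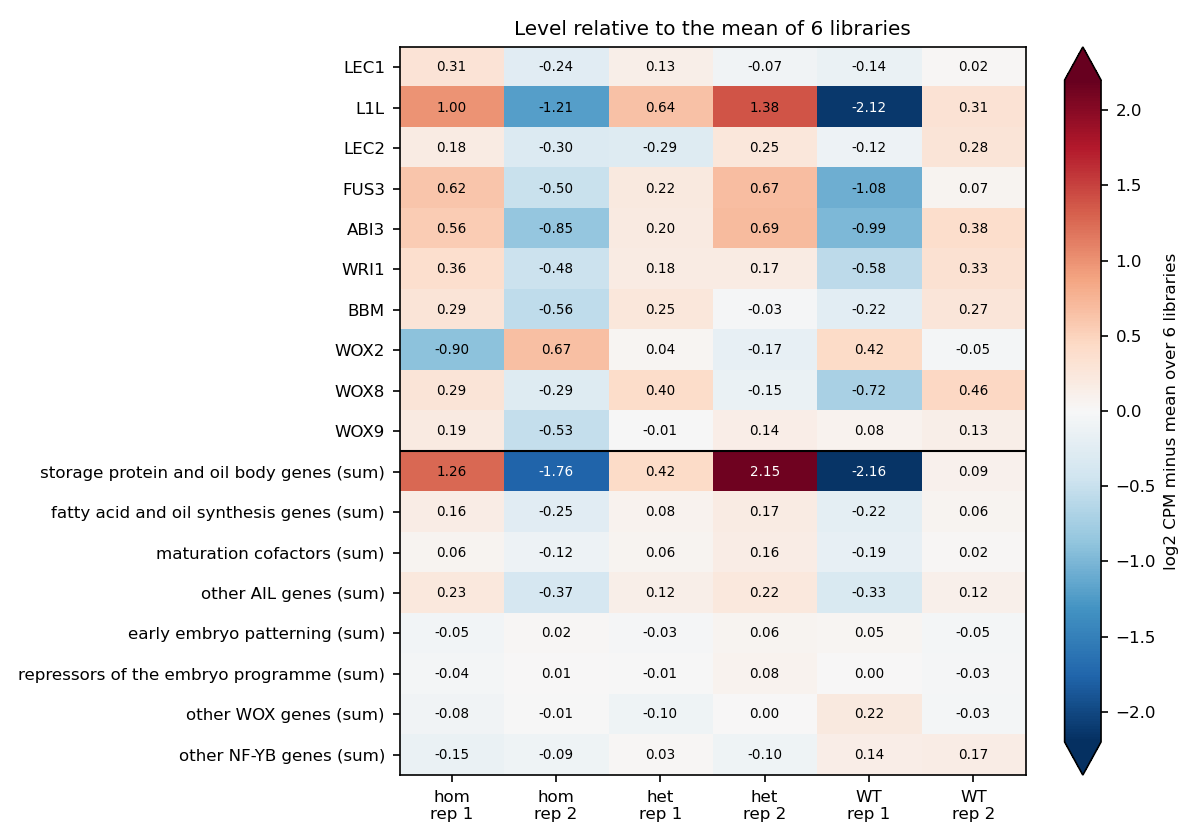
Level of each regulator (above the line) and summed level of each related gene list (below it) in every library, as log2 CPM minus the row's mean over the 6 libraries (hom homozygous, het heterozygous, WT wild type). Homozygous replicate 2 and wild type replicate 1 are blue for most regulators and for the storage and oil lists, while the patterning, repressor and other NF-YB rows stay within 0.17 of their means.

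Markers of other silique tissues were read beside these values, and their part in the results was not tested. The 7 seed coat markers summed to 858 CPM in homozygous replicate 2 and 688 CPM in wild type replicate 1, against 1184 to 1311 CPM in the other 4 libraries. TT10, MUM4 and GL2 were lowest in these 2 libraries, whereas TT12 (19.2 and 22.5 CPM against 11.7 to 16.6 CPM) and STK (141 and 143 CPM against 112 to 124 CPM) were highest there. The 9 endosperm markers summed to 69.4 and 73.3 CPM in the 2 libraries and 87.5 to 99.4 CPM in the rest. Of the 8 tested, ZOU and ALE1 were lowest in these 2 libraries and PHE1, FIS2 and FWA were highest there, with FWA at 17.9 and 21.7 CPM against 10.4 to 13.5 CPM in the others. The 7 silique wall markers summed to 459 to 495 CPM, with SHP2 and ADPG1 lowest and SHP1 and RPL highest in the 2 libraries. The 6 pollen markers instead summed lower in the homozygous libraries (95.5 to 144 CPM) than in the others (188 to 264 CPM). The heterozygous sums (188 and 264 CPM) and the wild-type sums (239 and 193 CPM) overlapped. In homozygous against wild type 0 of the 6 pollen markers were called (smallest edgeR adjusted p = 0.830). Every marker named for these tissues had counts in at least 1 library, and IKU2, of the endosperm list, was at 0 in wild type replicate 2.

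Homozygous siliques were set against the wild type to ask whether loss of AGO3 goes with a change in these regulators. By edgeR's quasi-likelihood test with Benjamini-Hochberg adjustment over 22702 genes, 0 of the 10 members passed 0.05, and the test called 0% of all genes. The unadjusted p was under 0.05 for 0 members and 5.7% of genes, and DESeq2 called 0 of the 9 members and 0.465% of the genes to which it gave an adjusted p. In 0 members did the homozygous libraries lie wholly above or wholly below the wild type, against 16.8% and 17.3% of all genes.

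The largest estimated difference was that of L1L, at 13.5 ± 12.3 CPM (SD, n = 2) in homozygous and 8.21 ± 7.98 CPM in wild-type siliques. Its log2 fold difference was 0.74 ± 0.83 (SE; edgeR adjusted p = 0.951), with a 95% interval from -1.20 to 2.68. FUS3 followed at 0.57 ± 0.45 (interval -0.47 to 1.61; edgeR adjusted p = 0.913). The other 8 members had estimates between -0.23 (WOX9) and 0.17 (ABI3). The narrowest interval was that of LEC1, whose difference of 0.12 ± 0.19 left room for changes from 0.792-fold to 1.48-fold, whereas that of L1L reached from 0.435-fold to 6.40-fold. Of the 10 members, 6 had higher and 4 lower estimates in homozygous siliques, with a median log2 difference of 0.05 beside 0.01 for all genes. The estimates rested on single libraries: that of L1L was -0.75 without homozygous replicate 1, 1.46 without homozygous replicate 2, -0.03 without wild type replicate 1 and 2.40 without wild type replicate 2. With both homozygous replicate 2 and wild type replicate 1 left out it was 0.68, that of FUS3 0.55, and those of WOX8 (-0.17), BBM (0.02) and WOX9 (0.07) changed sign.

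Heterozygous against wild-type siliques gave the largest differences of the 3 comparisons for L1L, FUS3 and ABI3, all with higher means in heterozygotes. L1L averaged 23.2 ± 8.18 CPM (SD, n = 2) in heterozygous siliques, a log2 difference of 1.51 ± 0.83 with an interval from -0.43 to 3.46 (edgeR adjusted p = 0.955). FUS3 averaged 14.4 ± 3.15 against 7.92 ± 4.24 CPM, a log2 difference of 0.87 ± 0.45 with an interval from -0.17 to 1.91 (edgeR adjusted p = 0.955). In these 2 genes both heterozygous libraries lay above both wild-type libraries, which 16.4% of all genes also did, and in 0 members both lay below, against 17.8% of genes.

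The difference was 0.62 ± 0.52 for ABI3 and 0.23 ± 0.33 for WRI1 on the log2 scale, and LEC1 differed by 0.09 ± 0.19. In this comparison edgeR called 0 members and 0% of genes after adjustment, and 0 members and 4.43% of genes before it. DESeq2 gave an adjusted p to 2 members, ABI3 and WRI1, and called neither of them and 0.235% of such genes. Without wild type replicate 1 and homozygous replicate 2, which leaves 1 wild-type library, the estimate was 0.74 for L1L, 0.40 for FUS3 and 0.09 for ABI3. Without wild type replicate 2 instead, it was 3.18 for L1L, 1.56 for FUS3 and 1.46 for ABI3. Of the members, 7 had higher and 3 lower estimates in heterozygotes, with a median of 0.13 beside -0.0034 for all genes. Without wild type replicate 1 and homozygous replicate 2, 4 members had higher and 6 lower estimates, with a median of -0.035.

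Between homozygous and heterozygous siliques, 8 members had lower and 2 higher estimates in homozygotes, with a median of -0.18 beside 0.01 over all genes. L1L showed the largest difference, -0.77 ± 0.81 on the log2 scale (interval -2.67 to 1.12; edgeR adjusted p = 1.00), then ABI3 at -0.45 ± 0.52 and FUS3 at -0.30 ± 0.44. The test of edgeR called 0 members and 0% of genes after adjustment, and 0 members and 3.28% of genes before it, and DESeq2 called 0 of the 9 members and 0.111% of the genes to which it gave one. Groups lay apart in 0 members, with homozygotes above in 15.7% and below in 14.9% of all genes. Without homozygous replicate 2 the direction turned for 8 of the members, among them ABI3 (0.09) and FUS3 (0.15), and the estimate of L1L was -0.06. Without homozygous replicate 1 those of L1L, ABI3 and FUS3 were -2.26, -1.32 and -0.97. Without homozygous replicate 2 and wild type replicate 1, which leaves 1 homozygous library, 8 members had higher and 2 lower estimates in homozygotes (median 0.14).

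**Figure D4:**
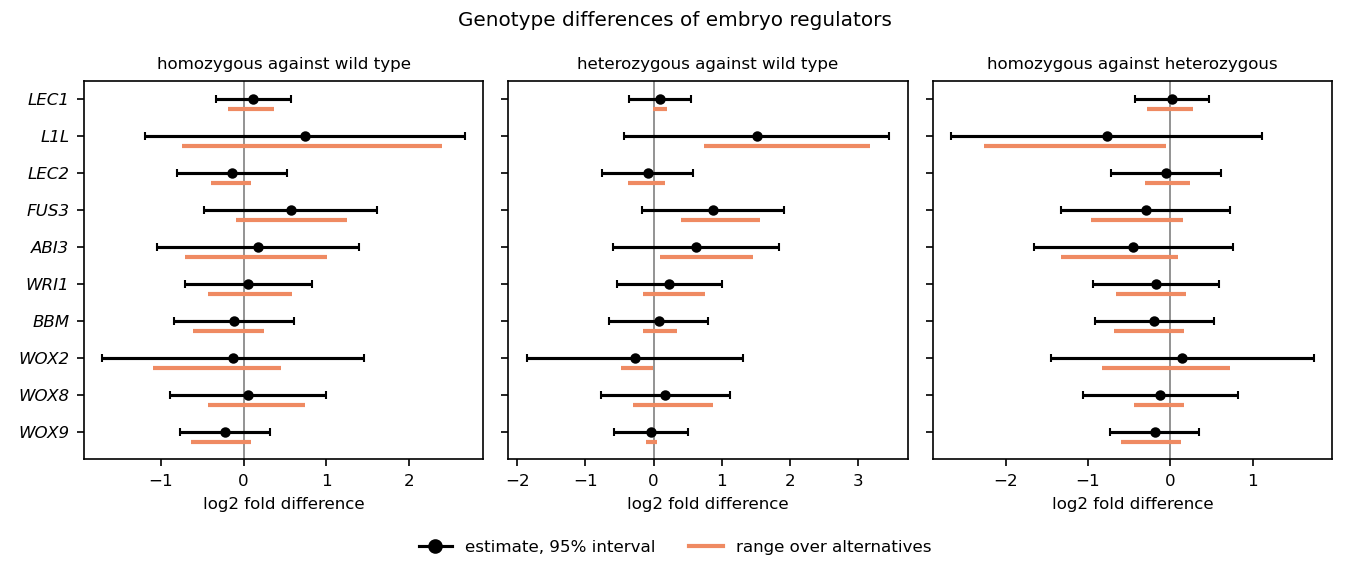
Log2 fold difference of each regulator in the 3 genotype comparisons, first named minus second named, as edgeR's estimate with its 95% interval (black) and the range over the alternative settings (orange). Every interval includes 0, and they are widest for L1L (-1.20 to 2.68 in homozygous against wild type) and narrow for LEC1 (-0.34 to 0.57).

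Related gene lists gave 0 called genes in each comparison as well. Of the 11 storage and oil body genes that passed the filter on low counts, CRB, SESA2, SESA4 and SESA5 had at most 1 count in each wild-type library, so they passed through the mutant libraries and their direction was fixed by the filter. For this reason no direction over the list is given as a result. An unadjusted p under 0.05 was reached by 0 of the 11 in homozygous against wild type and 7 in heterozygous against wild type. In homozygous against heterozygous it was reached by 0, and the shares of all genes were 5.7%, 4.43% and 3.28% in the same order. Because CRB, SESA2, SESA4 and SESA5 entered the test through the mutant libraries, the count of 7 is not read as a result. The smallest edgeR adjusted p of the list was 0.865, 0.955 and 1.00 in these comparisons. Leaving out homozygous replicate 2 and wild type replicate 1 keeps 1 wild-type library, in which CRB, SESA4 and SESA5 had 0 counts. For this reason no count over the list is given from that fit.

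Directions of the oil list depended on the same 2 libraries, and those of the cofactor list did so in part. Fatty acid and oil synthesis genes had higher estimates in 10 of 15 in homozygous and 13 of 15 in heterozygous against wild-type siliques, and in 13 and 9 of 15 without the 2 libraries. Between homozygous and heterozygous siliques 1 of the 15 was higher, and 10 were without the 2 libraries. Over all genes, higher estimates made up 51.7% in homozygous and 49.4% in heterozygous against wild-type siliques, and 51.7% in homozygous against heterozygous. These shares are from all 6 libraries. Maturation cofactors had 10 and 11 of 14 higher against the wild type, and 7 and 9 without the 2 libraries. In homozygous against heterozygous siliques 4 of the 14 cofactors were higher, both with and without the 2 libraries. The 5 repressors had 2 and 3 higher estimates against the wild type, both with and without the 2 libraries. Their medians were -0.02 and 0.05 in all 6 libraries and -0.01 and 0.09 without the 2. In homozygous against heterozygous siliques 2 of the 5 repressors were higher (median -0.07), and 0 without the 2 libraries (median -0.14).

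Small RNA reads over the 10 loci were counted in the 500 bp windows that overlapped each gene. Their totals were 37189850 reads in the AGO3 immunoprecipitate, 25613847 in the control and 40262802 in total small RNA. A window was called enriched where it had at least 20 AGO3 reads and its AGO3 RPM (reads scaled to the library total) plus 1 was at least 4 times its control RPM plus 1. No window over any of the 10 members met this, and 1.21% of 27432 protein-coding genes overlapped such a window. At these library totals a window needed at least 112 AGO3 reads to meet the ratio. Only WOX8 (227) and LEC1 (134) had as many over all their windows, so the other members could not be called whatever their control reads. The median protein-coding gene had 21 total small RNA reads, and FUS3, ABI3, L1L, WOX2, WOX9 and LEC2 had between 2 and 16. With 1 library of each kind no test was made, and the intervals cover counting error only.

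WOX8 had the most AGO3 reads of the members. Its windows held 227 AGO3, 50 control and 106 total reads, a ratio of AGO3 to control per library total of 3.13 (95% interval 2.29 to 4.34). Of these, 160 AGO3, 9 control and 46 total reads lay in the window chr5:18650001-18650500 (TAIR10), wholly inside the gene's span, where the ratio was 12.2 (6.29 to 27.3). With 1 added to both RPM values the ratio in this window was 3.92, just under the threshold of 4. Restricting the count to windows wholly inside WOX8 gave a ratio of 6.73, and adding 1000 bp on both sides gave 2.09.

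LEC1 had the most total small RNA, 350 reads, with 134 in the AGO3 and 124 in the control immunoprecipitate, a ratio of 0.744 (0.579 to 0.958). Of the total reads 345 fell in the window chr1:7729501-7730000, of which 149 bp lie within the span of LEC1 and which overlaps no other annotated gene. Over the windows wholly inside LEC1 there were 0 AGO3, 14 control and 3 total reads. LEC2, BBM and WRI1 had fewer AGO3 than control reads, with 14 against 62 (ratio 0.156, 0.0804 to 0.281), 55 against 108 (ratio 0.351, 0.249 to 0.490) and 27 against 48 (ratio 0.387, 0.232 to 0.633). These ratios, like that of LEC1 over its overlapping windows, lay below 1 over their whole intervals. For LEC1 this depended on the windows taken. With 1000 bp added on both sides its ratio was 0.809 (0.634 to 1.03). In the window with most of its total reads the ratio was 0.871 (0.670 to 1.13). BBM had 53 of its 63 total reads in 1 window inside the gene. Because a window can reach past a gene and the strand of the reads is not given, these reads cannot be assigned to the transcripts.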

How the data were processed

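Estimated counts per gene, 1 deposited column per library, were not scaled to depth; 7.88% of values were not whole, and they were rounded for testing. The deposited small RNA table held read counts per 500 bp window. HISAT2, Bowtie, featureCounts and TAIR10 are named in the submitters' processing notes; no version, setting or strand, nor how multiply placed reads were treated, was given in the sources used here, so antisense or overlapping transcripts cannot be told apart. LEC1, FUS3, ABI3, WRI1 and BBM had a value that was not whole in at least 1 library.

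Genes were filtered with filterByExpr and fitted with edgeR 4.0.16 (limma 3.58.1, R 4.3.3) on all 6 libraries with genotype alone and TMM scaling; 22702 genes were tested, the biological coefficient of variation was 0.185, and 3 residual and 4.53 prior degrees of freedom were used. Adjustment was by Benjamini-Hochberg at 0.05. The standard error (SE) is the log2 fold change over the square root of F, and intervals are at 95%. The fit was tested on simulated counts, which lacked the split within genotypes seen in these libraries. DESeq2 1.42.0 was an alternative, with normalization, filtering, samples, a replicate block and left-out libraries. CPM use TMM-scaled totals.

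The members, the 12 other lists (118 genes) and the tests were chosen with earlier results of these data known. The rule for names took all members, AGO3, genes of other lists past the test (0) and the 3 genes most like the members' mean profile, at mean log2 CPM 1 or more. Names and gene spans came from a RefSeq table of TAIR10.1, matched to 32548 of 34262 rows; levels per kilobase use the genomic span, introns included. With that table, 326 miRNA genes had a median of 278 total small RNA reads in the windows at their place and 4 and 3 in windows 1000 and 5000 bp away. Ratios have exact Clopper-Pearson intervals, which cover counting error only. Sequences were not used here.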

Additional observations from a re-analysis of the deposited data

How the results depend on the processing

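No member was called in any comparison under any alternative; the smallest adjusted p of a member was 0.0962 (edgeR, L1L, homozygous against wild type, with crossed pairing). Of 370 alternative estimates of the members, 318 kept their direction and 52 turned, all on leaving out libraries. Over all genes, calls in homozygous against wild type, heterozygous against wild type and homozygous against heterozygous went from 0 each to 76, 18 and 23 with DESeq2 and to 54, 22 and 5 without homozygous replicate 2 and wild type replicate 1, and to 4 in the first with no filter on low counts; leaving out 1 library gave 0 to 3, 0 to 4 and 0 to 1. The cause was not tested. The replicate block left 0 calls in all 3. Correlations of replicate differences were -0.364, -0.0447 and -0.0877 in the same order. Homozygous replicate 2 and wild type replicate 1 stood apart and carry different replicate numbers. These correlations therefore cannot decide whether the numbers mark shared batches. A crossed pairing of homozygous and wild-type replicates, chosen after seeing the data, gave 136 calls. The order of levels moved for 4 genes without division by length, and other scalings moved no mean over the 6 libraries by more than its spread. With plain totals the order of 2 replicate pairs turned. WOX9 in wild type replicates 1 and 2 went from 12.8 and 13.2 to 13.1 and 12.2 CPM. WRI1 in heterozygous replicates 1 and 2 went from 81.2 and 80.7 to 79.4 and 82.9 CPM.

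Without both libraries the log2 differences that turned were BBM 0.018, WOX8 -0.168 and WOX9 0.067 in homozygous against wild type; WRI1 -0.153, BBM -0.152 and WOX8 -0.307 in heterozygous against wild type; and LEC2 0.169, FUS3 0.149, ABI3 0.092, WRI1 0.185, BBM 0.170, WOX2 -0.828, WOX8 0.139 and WOX9 0.125 in homozygous against heterozygous.

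Leaving out 1 library at a time, those with a turned direction ranged in homozygous against wild type as LEC1 -0.185 to 0.366, L1L -0.750 to 2.401, LEC2 -0.397 to 0.083, FUS3 -0.094 to 1.248, ABI3 -0.704 to 1.008, WRI1 -0.427 to 0.581, BBM -0.607 to 0.249, WOX2 -1.100 to 0.453, WOX8 -0.427 to 0.746 and WOX9 -0.633 to 0.091. In heterozygous against wild type these were LEC1 -0.004 to 0.195, LEC2 -0.378 to 0.166, WRI1 -0.153 to 0.762, BBM -0.152 to 0.350, WOX8 -0.307 to 0.872 and WOX9 -0.114 to 0.050. In homozygous against heterozygous they were LEC1 -0.279 to 0.272, LEC2 -0.311 to 0.240, FUS3 -0.965 to 0.150, ABI3 -1.324 to 0.092, WRI1 -0.660 to 0.185, BBM -0.685 to 0.170, WOX2 -0.828 to 0.725, WOX8 -0.439 to 0.172 and WOX9 -0.598 to 0.126. Where 1 library is left in a group, it is assumed to vary like the others. WOX2, with 8 to 23 counts per library, rests on the fewest counts of the members.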
